A study of Mus musculus with 89 samples.

Results

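The mitochondrial respiratory chain genes examined here were the nuclear genes for subunits of complexes I to IV, measured in forebrain of mouse embryos at E18.5. Members were chosen by symbol: a probe set with 1 gene symbol that starts with Ndufa, Ndufb, Ndufc, Ndufs, Ndufv, Uqcr, Cox4i, Cox5, Cox6, Cox7 or Cox8, or that is Sdha, Sdhb, Sdhc, Sdhd or Cyc1, with the assembly factors named Ndufaf left out. The rule found 69 probe sets, each for a different gene, among 22206 probe sets on the array: 36 for complex I, 4 for complex II, 9 for complex III and 20 for complex IV. Ndufa4 and its paralogue Ndufa4l2 were counted with complex IV, where Ndufa4 is now placed. No expression value entered this choice.

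Complex I passes electrons from NADH to ubiquinone and complex II passes them from succinate. Complex III hands them to cytochrome c, and complex IV hands them to oxygen. Neurons draw most of their ATP from this chain, and lower respiratory chain activity has been described in cells from people with Down syndrome. Most subunits are encoded in the nucleus, and their genes are known to answer to shared factors such as GABP, NRF1, YY1 and the coactivator PGC-1alpha. One of these, the GABP alpha subunit gene Gabpa, lies in the mouse segment that is triplicated in both models studied here.

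The 4 groups were Ts65Dn (23 arrays, 13 female and 10 male by label) with its euploid littermates EupTs65Dn (18 arrays, 9 and 9), and Ts66Yah (24 arrays, 13 and 11) with its euploid littermates EupTs66Yah (24 arrays, 11 and 13). Ts65Dn mice carry a freely segregating extra chromosome that holds the part of mouse chromosome 16 (Mmu16) orthologous to human chromosome 21 (Hsa21) together with proximal Mmu17, which has no Hsa21 orthologues. Ts66Yah mice carry the Mmu16 part without those Mmu17 genes. Both lines were kept on a mixed B6 and C3H background without any treatment, and the extra chromosome of Ts65Dn came through the mother. Each array held RNA of 1 embryo, from 6 litters a colony, so embryos of a litter share a dam, and the number of arrays limits the precision. The series text counts 25 Ts66Yah arrays, and 24 are labelled so here.

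The 2 colonies lay at different overall levels, with array medians of 5.22 to 5.38 log2 units in Ts65Dn and 5.29 to 5.39 in EupTs65Dn, against 6.31 to 6.47 in Ts66Yah and 6.08 to 6.45 in EupTs66Yah, so trisomic embryos were compared with euploid embryos of their own colony only. EupTs66Yah array 16 stood apart: the standard deviation of its log2 values was 1.13, against 2.23 to 2.39 on the other EupTs66Yah arrays, so Ts66Yah counts, medians and complex means are given with and without it. Changes of single genes in Ts66Yah are given without it unless stated, and the value with it stands beside the genes nearest to a call. Over 121 genes of the Mmu16 segment, 4 arrays had the mean level typical of the opposite genotype (those labelled Ts65Dn 18, Ts66Yah 13, Ts66Yah 24 and EupTs66Yah 24), and on 17 arrays the Y-linked genes went against the labelled sex. No arrays were identical (highest correlation 0.987). Of the forebrain markers 9 of 11 were measured and none was called in any comparison, with a mean level of 8.40 ± 0.10 (SD) in Ts65Dn and 8.42 ± 0.12 in EupTs65Dn. The 8 midbrain and hindbrain markers measured averaged 3.86 ± 0.20 in Ts65Dn and 3.78 ± 0.15 in EupTs65Dn. In the Ts66Yah colony they averaged 5.85 ± 0.35 in Ts66Yah and 5.73 ± 0.32 in EupTs66Yah without array 16. Forebrain markers averaged 8.95 ± 0.17 and 8.94 ± 0.16 there. Midbrain and hindbrain markers thus lay higher and spread more between embryos in the Ts66Yah colony, whose overall level was also higher. The cause was not tested.

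None of the 69 genes lies in the triplicated Mmu16 segment from Mrpl39 to Zbtb21 or in the proximal Mmu17 part up to Pde10a. Ndufb4 is on chromosome 16 outside that segment. Ndufv3, a small accessory subunit of complex I, has its human orthologue on Hsa21, but in mouse it lies on the part of chromosome 17 that neither extra chromosome carries. Ndufa7, Ndufa11, Ndufb10, Ndufv2 and Cox7a2l are also on chromosome 17 outside the extra part. Ndufb4 and Ndufb4b are near copies of each other, and their probe sets may share signal.

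Because Gabpa is present in an extra copy, the RefSeq promoter windows of the members (GRCm38.p6, 250 bases before to 50 after the start of the gene, 300 in all) were searched for 3 exact motifs on both strands. The tables held 57 windows for 55 of the 69 genes. The GABP motif CCGGAAGT was found in 4 member windows, 7.02% of them, and in 3.89% of all 32851 windows. These 4 genes were Cox8a, Ndufs3, Uqcr11 and Uqcrh. The first 2 sequences are the 250 bases before the start of Uqcrh (chr4:116075071-116075320, minus strand) and Uqcr11 (chr10:80406822-80407071, minus strand), and the next 2 are 30 bases across the start of Cox8a (chr19:7217604-7217633, minus strand) and Ndufs3 (chr2:90904703-90904732, minus strand). They are shown because these members carry a match for the triplicated factor. All are read 5′ to 3′ along the gene, and capitals mark the motif or its reverse complement ACTTCCGG.
Uqcrh: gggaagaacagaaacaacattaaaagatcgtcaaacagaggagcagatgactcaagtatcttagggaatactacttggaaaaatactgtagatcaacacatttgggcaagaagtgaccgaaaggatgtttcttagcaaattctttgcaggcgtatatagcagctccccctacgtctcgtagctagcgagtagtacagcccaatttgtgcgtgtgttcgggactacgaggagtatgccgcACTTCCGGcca
Uqcr11: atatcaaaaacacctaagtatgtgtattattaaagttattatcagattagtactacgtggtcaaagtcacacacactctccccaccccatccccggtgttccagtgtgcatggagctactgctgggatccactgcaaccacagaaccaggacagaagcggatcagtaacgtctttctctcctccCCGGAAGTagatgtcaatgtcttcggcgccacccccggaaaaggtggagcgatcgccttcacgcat
Cox8a: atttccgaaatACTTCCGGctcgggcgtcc
Ndufs3: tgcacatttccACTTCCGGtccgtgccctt
The Cox8a window held a second match further into the gene.

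The NRF1 motif GCATGCGC was found in 12.3% of member windows and in 2.71% of all windows. Its 7 genes were Cox6a1, Ndufa11, Ndufa6, Ndufa8, Sdhb, Uqcr11 and Uqcrc1, so that only Uqcr11 held both it and the GABP motif. This motif reads nearly the same on both strands, and in Cox6a1, Ndufa11 and Uqcrc1 overlapping matches were found on each. The YY1 motif AAGATGGCG was found in 8.77% of member windows and in 1.40% of all windows. Its 5 genes all encode complex I subunits, and in each the match began between base 23 and base 36 of the gene, on its own strand. They are shown in capitals in 25 to 30 bases around the match, on chr6:126849096-126849125, minus strand for Ndufa9, chr3:51408914-51408943, minus strand for Ndufc1, chr13:114388045-114388069, minus strand for Ndufs4, chr13:73328433-73328459, minus strand for Ndufs6 and chr10:80249463-80249492, plus strand for Ndufs7.
Ndufa9: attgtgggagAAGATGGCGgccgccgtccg
Ndufc1: cctgcggaacAAGATGGCGccgtccgtagt
Ndufs4: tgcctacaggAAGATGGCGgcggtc
Ndufs6: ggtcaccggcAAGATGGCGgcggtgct
Ndufs7: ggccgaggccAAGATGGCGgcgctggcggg
The 3 motifs do not overlap one another in any of these sequences. A match describes letters in a window and not a bound site.

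None of the 69 genes was called in either trisomy. Each log2 change was tested with limma's moderated test. p-values were adjusted by Benjamini-Hochberg across the 22206 probe sets, and an adjusted p under 0.1 was a call. In Ts65Dn against EupTs65Dn, 0.491% of all probe sets were called, and the smallest adjusted p of a member was 0.717. In Ts66Yah against EupTs66Yah, 0.171% of all probe sets were called with all arrays and 0.932% without the array that stood apart, and the smallest adjusted p of a member was 0.329 and 0.194. The unpaired t-test named in the series text, run on the same values with all arrays, also called 0 members in either comparison. In Ts66Yah this t-test was not run without array 16. Leaving out array 16 and the 4 arrays at the opposite level gave 0 calls again, with a smallest adjusted p from limma of 0.671 in Ts65Dn and 0.133 in Ts66Yah. At an unadjusted p under 0.05, 3 members passed in Ts65Dn (4.35% of them, against 5.79% of all probe sets), 3 in Ts66Yah with all arrays (4.35% against 10.2%) and 8 without the array that stood apart (11.6% against 12.1%). These shares were near or below the share over all probe sets.

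The intervals show how large a change the arrays could still hold. In Ts65Dn, the 95% interval of the fold change lay wholly between 0.8 and 1.25 for 64 of the 69 genes. In Ts66Yah without the array that stood apart this held for 65 of 69. An extra copy of a gene would give 1.5-fold if output followed copy number. None of the 69 genes lies in an extra segment, so 1.5-fold serves here as a scale only. The upper bound was below 1.5-fold for all 69 genes in both of these comparisons. With all Ts66Yah arrays the intervals were wider, and 53 of 69 upper bounds were below 1.5-fold.

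**Figure D1:**
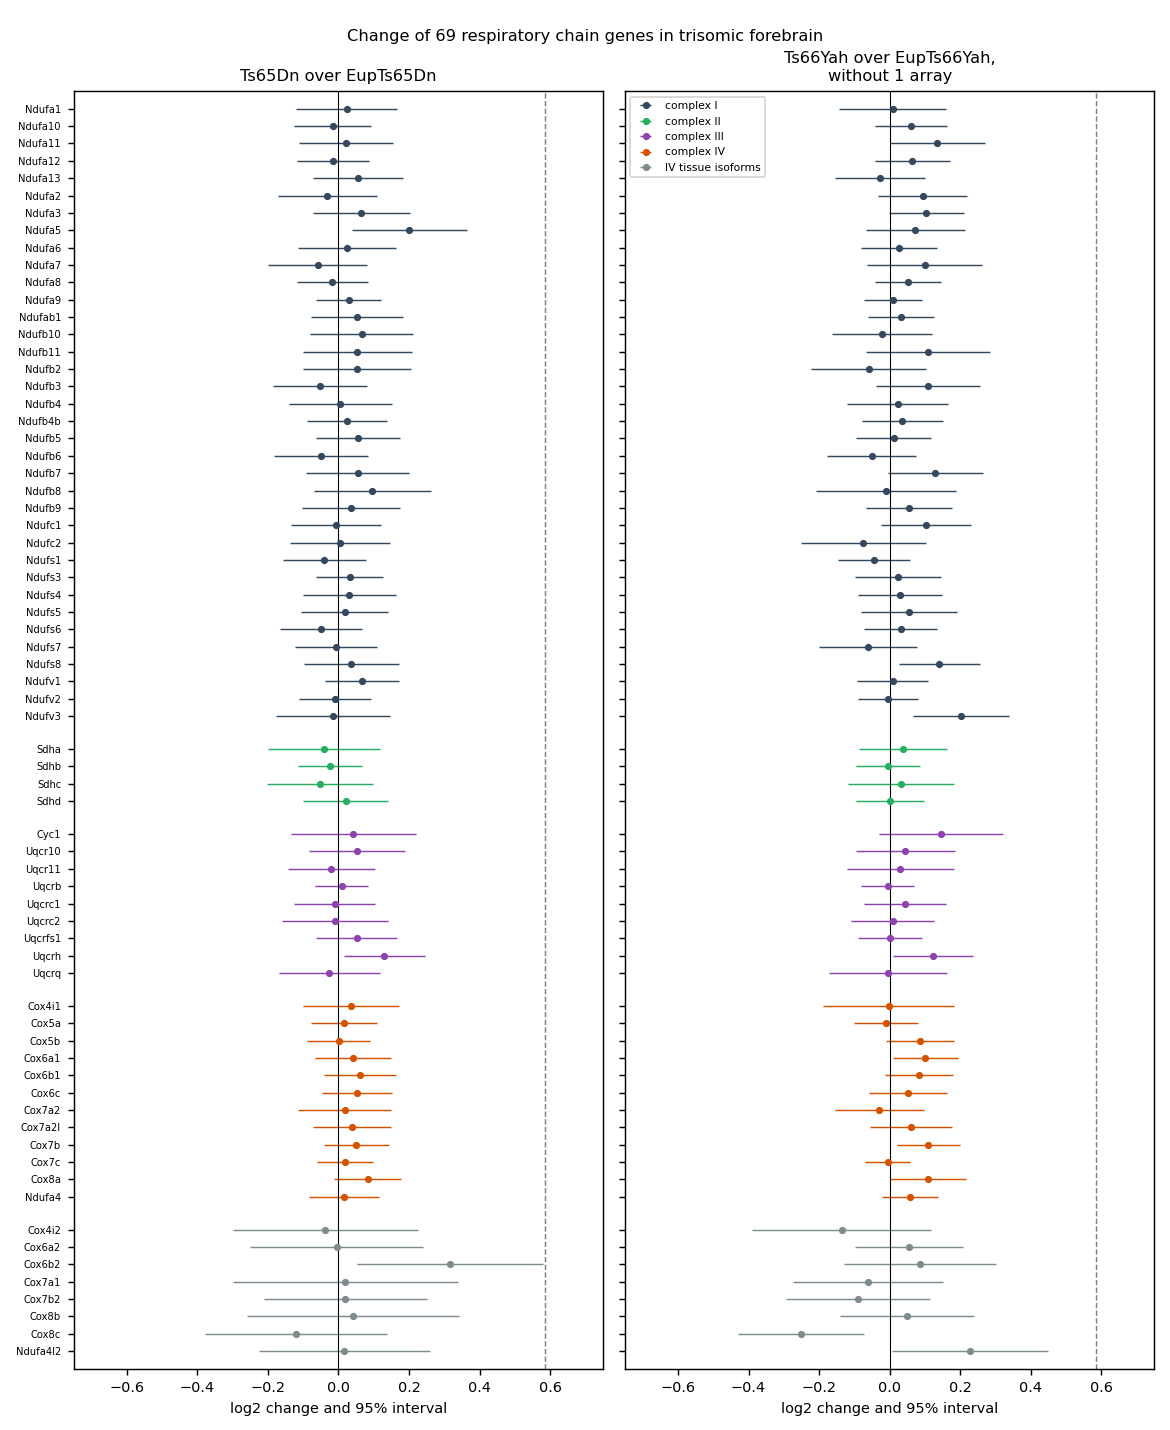
log2 change of each of the 69 genes (point) with its 95% interval (line), by complex, for Ts65Dn over EupTs65Dn (left) and for Ts66Yah over EupTs66Yah without the array that stood apart (right). The dashed line marks 1.5-fold, and all 69 intervals end below it in both panels.

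Most members had slightly higher means in the trisomic embryos, without a call. In Ts65Dn, 46 of the 69 means were higher than in EupTs65Dn and 23 lower, and the median log2 change was 0.020, against -0.0021 over all probe sets. The median was -0.0073 without litter TS113, so its direction rested on that litter. In Ts66Yah with all arrays, 62 means were higher and 7 lower, and the median was 0.16, against 0.043 over all probe sets and 0.12 over those at or above the median signal. Without EupTs66Yah array 16, 49 were higher and 20 lower and the median was 0.032, against 0.0044 over all probe sets and 0.026 over those at or above the median signal. Of the 61 members at or above the median signal, 41 were higher in Ts65Dn, 59 in Ts66Yah with all arrays and 45 without array 16. Of all 11103 probe sets at or above that signal, 4994, 9827 and 6951 were higher, in the same order. The Ts66Yah counts thus lay beside a shift of most brighter probe sets. Array 16 lay below the mean of the other EupTs66Yah arrays for 62 of the 69 genes, with a median difference of -2.68 log2 units, and was the lowest of its group for 58.

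Averaged over each complex, trisomic and euploid embryos overlapped throughout. Complex I averaged 8.29 ± 0.11 log2 units in Ts65Dn and 8.27 ± 0.11 in EupTs65Dn (SD, n = 23 and 18), and 9.14 ± 0.15 in Ts66Yah and 9.10 ± 0.09 in EupTs66Yah without array 16 (n = 24 and 23). Complex II averaged 7.73 ± 0.12 in Ts65Dn and 7.76 ± 0.10 in EupTs65Dn, and 8.57 ± 0.13 in Ts66Yah and 8.55 ± 0.13 in EupTs66Yah. Complex III averaged 8.29 ± 0.10 in Ts65Dn and 8.26 ± 0.12 in EupTs65Dn, and 9.25 ± 0.18 in Ts66Yah and 9.20 ± 0.11 in EupTs66Yah. The differences were smaller than the spread between embryos in every case. Complex IV without its tissue isoforms averaged 9.75 ± 0.10 in Ts65Dn and 9.72 ± 0.10 in EupTs65Dn, and 10.5 ± 0.13 in Ts66Yah and 10.5 ± 0.09 in EupTs66Yah. With array 16 included, the EupTs66Yah mean was 8.98 ± 0.58 for complex I, 8.43 ± 0.64 for complex II, 9.10 ± 0.51 for complex III and 10.3 ± 0.96 for complex IV (n = 24). In whole tissue, fewer cells of a type and less RNA per cell cannot be told apart.

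**Figure D2:**
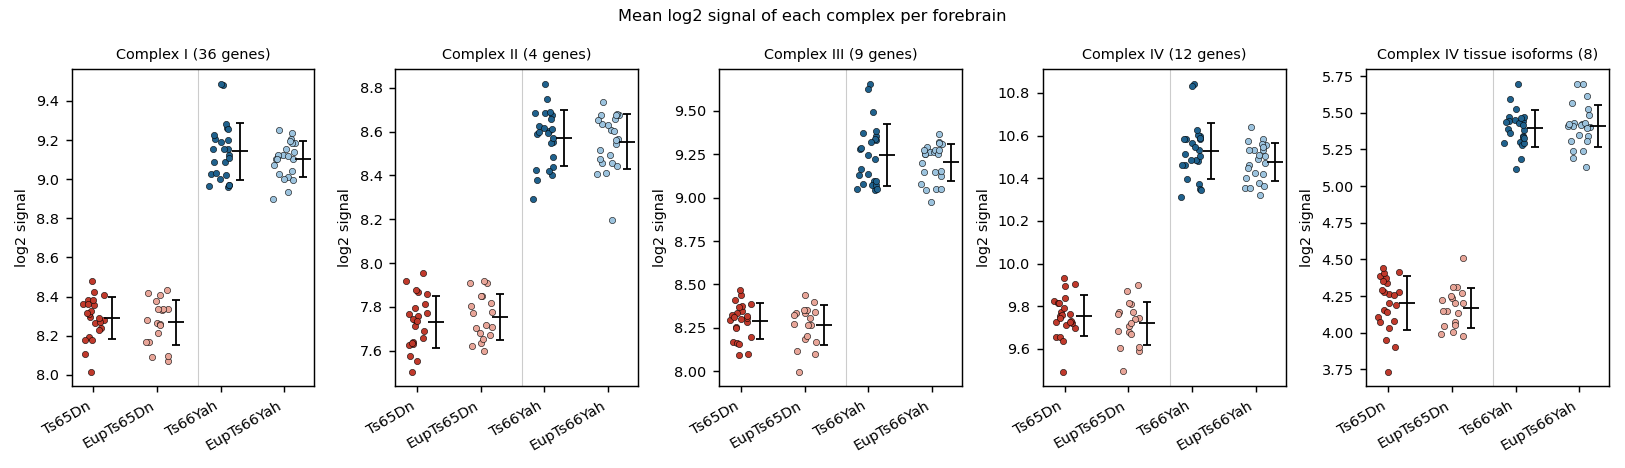
Mean log2 signal of the genes of each complex in each forebrain (points), with the group mean and SD (bars), for Ts65Dn, EupTs65Dn, Ts66Yah and EupTs66Yah without array 16. Trisomic and euploid embryos of each colony overlap in every panel, and the same 2 Ts66Yah embryos lie highest for complexes I to IV without the tissue isoforms. The margin is small for complex II, where Ts66Yah array 2 has 8.75 and EupTs66Yah array 1 has 8.73.

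Ts66Yah arrays 2 and 5, from litters WT11 and WT12, had the highest means over all 69 genes, 9.26 and 9.24, against a highest value of 9.03 in EupTs66Yah. The next highest Ts66Yah array had 9.05. Among EupTs66Yah arrays, array 16 had a mean over the 69 genes of 6.20.

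Complex I has a set of core subunits that carry its flavin and iron-sulfur clusters and many accessory subunits around them. The 6 core genes on the list (Ndufs1, Ndufs3, Ndufs7, Ndufs8, Ndufv1 and Ndufv2) had a median log2 change of 0.013 in Ts65Dn and 0.0016 in Ts66Yah without array 16. The 30 accessory genes had medians of 0.024 and 0.044, with 20 and 24 higher means. Including array 16, the medians were 0.17 for the core genes and 0.14 for the accessory genes, and 29 of the 30 accessory means were higher.

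Ndufa5, an accessory subunit of the peripheral arm, was the member nearest to a call in Ts65Dn. Its probe set (TC0600001943.mm.2, chromosome 6) had a lowest, median and highest value of 7.38, 8.30 and 8.76 in Ts65Dn, against 7.76, 8.08 and 8.36 in EupTs65Dn. The groups overlapped, with 19 of 23 Ts65Dn embryos above the euploid median, and the lowest embryo of the colony, from litter TS125, was a Ts65Dn embryo. The log2 change was 0.20 (SE 0.081), 1.15-fold with a 95% interval of 1.03 to 1.29, with an adjusted p of 0.717 from limma. Without litter TS125 the change was 0.29 and the adjusted p 0.094, past the threshold. In Ts66Yah the values were 8.12, 8.71 and 9.20, against 8.17, 8.64 and 9.06 in EupTs66Yah without array 16. The change there was 0.072 (SE 0.070), and 0.14 (SE 0.10) with all arrays.

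Ndufv3, the Hsa21 orthologue, was the member nearest to a call in Ts66Yah without array 16. Its lowest, median and highest values (TC1700000539.mm.2) were 6.25, 6.64 and 6.99 in Ts66Yah, against 5.75, 6.46 and 6.81 in EupTs66Yah, with array 16 at 4.82. The ranges overlapped, with 19 of 24 Ts66Yah embryos above the euploid median. The change was 0.20 (SE 0.068), 1.15-fold with an interval of 1.05 to 1.26 and an adjusted p of 0.194 from limma, and with all arrays it was 0.27 (SE 0.097) with an adjusted p of 0.368. In Ts65Dn the values of Ndufv3 were 5.47, 5.98 and 6.54, against 5.55, 6.03 and 6.29 in EupTs65Dn. The change was -0.016 (SE 0.080), 0.989-fold with an interval of 0.884 to 1.11.

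Ndufs8, a core iron-sulfur subunit, differed by 0.14 (SE 0.057, adjusted p 0.307 from limma) in Ts66Yah without array 16, by 0.26 (SE 0.13, adjusted p 0.487) with all arrays, and by 0.036 (SE 0.067) in Ts65Dn. Ndufa11, a subunit of the membrane arm, differed by 0.14 (SE 0.067) in Ts66Yah and 0.021 (SE 0.066) in Ts65Dn. Ndufa3 differed by 0.10 (SE 0.053) and 0.065 (SE 0.067). Of the other accessory genes with small p-values in a comparison, Ndufb7 differed by 0.13 in Ts66Yah and 0.055 in Ts65Dn, Ndufb3 by 0.11 and -0.052, and Ndufb8 by -0.011 and 0.096. The core gene Ndufv1, which binds the flavin, differed by 0.0087 in Ts66Yah and 0.067 in Ts65Dn. None of these was called.

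Complex II is encoded wholly in the nucleus and also belongs to the citric acid cycle. In Ts65Dn, 3 of its 4 genes had lower means than in EupTs65Dn. The flavoprotein Sdha differed by -0.042 (SE 0.079) and the iron-sulfur protein Sdhb by -0.023 (SE 0.045). Of the membrane anchors, Sdhc differed by -0.052 (SE 0.074) and Sdhd by 0.021 (SE 0.059). In Ts66Yah without array 16 the changes were 0.038 for Sdha, -0.0051 for Sdhb, 0.032 for Sdhc and 0.0019 for Sdhd. All 4 intervals lay between 0.8-fold and 1.25-fold in both comparisons. Over all Ts66Yah arrays the 4 means were higher, with a median of 0.15, and 1 of 4 intervals lay within those bounds.

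In complex III, Uqcrh was the 1 member at an unadjusted p under 0.05 in both colonies. It encodes the hinge protein that sits beside cytochrome c1. Its values (TC0400003330.mm.2, chromosome 4) were 9.35, 9.69 and 10.0 at the lowest, median and highest in Ts65Dn, against 9.14, 9.56 and 9.92 in EupTs65Dn. They were 10.3, 10.6 and 11.1 in Ts66Yah, against 10.2, 10.5 and 10.9 in EupTs66Yah without array 16, which itself had 7.52. The groups overlapped over most of their range in both colonies, with 19 of 23 Ts65Dn and 16 of 24 Ts66Yah embryos above their euploid median. The change was 0.13 (SE 0.057), 1.09-fold with an interval of 1.01 to 1.18, in Ts65Dn, and 0.12 (SE 0.056), 1.09-fold with an interval of 1.01 to 1.18, in Ts66Yah. Adjusted p-values from limma were 0.793 and 0.373. With all Ts66Yah arrays the change was 0.25 (SE 0.14) with an adjusted p of 0.509, and the interval of 0.985 to 1.43 included no change.

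The other complex III genes were also not called. Cyc1, cytochrome c1, differed by 0.042 (SE 0.088) in Ts65Dn and 0.15 (SE 0.088) in Ts66Yah without array 16, and the Rieske protein gene Uqcrfs1 by 0.052 (SE 0.057) and 0.0013 (SE 0.045). Uqcr11 and Uqcr10, both small subunits, differed by -0.020 and 0.052 in Ts65Dn and by 0.030 and 0.044 in Ts66Yah. All 9 intervals lay between 0.8-fold and 1.25-fold in both comparisons. With all Ts66Yah arrays the median of the 9 genes was 0.13, Cyc1 differed by 0.25 (SE 0.14), and 3 of 9 intervals lay within those bounds.

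In complex IV, the 12 genes other than tissue isoforms all had higher means in Ts65Dn than in EupTs65Dn, with a median log2 change of 0.037, and in Ts66Yah without array 16, 8 of 12 were higher with a median of 0.059. With array 16 included, 12 of 12 were higher with a median of 0.23, and the count and the median both moved with that array. The genes of this group vary together between embryos, so these counts are not independent of one another. Cox8a, a small subunit, lay at 9.18, 9.46 and 9.72 in Ts65Dn, against 9.08, 9.38 and 9.62 in EupTs65Dn. In Ts66Yah it lay at 9.87, 10.1 and 10.6, against 9.75, 10.0 and 10.4 in EupTs66Yah without array 16. The ranges overlapped in both colonies, and 17 of 23 Ts65Dn and 19 of 24 Ts66Yah embryos lay above their euploid median. The change was 0.083 (SE 0.047) and 0.11 (SE 0.053), with adjusted p-values of 0.901 and 0.407 from limma. Over all Ts66Yah arrays it was 0.26 (SE 0.16, adjusted p 0.526).

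Cox7b, on the X chromosome, differed by 0.051 (SE 0.046) in Ts65Dn and 0.11 (SE 0.044, adjusted p 0.295 from limma) in Ts66Yah without array 16. Cox6a1 differed by 0.041 (SE 0.053) and 0.10 (SE 0.046). Cox6b1 differed by 0.061 and 0.083, Cox6c by 0.052 and 0.051, and Cox7a2 by 0.017 and -0.030. Cox4i1, the largest nuclear-encoded subunit, differed by 0.036 (SE 0.067) and -0.0029 (SE 0.092). Ndufa4 differed by 0.015 (SE 0.049) and 0.057 (SE 0.040). Cox7a2l, which is known for joining complexes III and IV into supercomplexes, differed by 0.038 (SE 0.055) and 0.061 (SE 0.058). None of these was called.

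The tissue isoforms of complex IV were the 8 members below the median signal of the arrays in both colonies, and the other 61 lay at or above it. Cox6a2, Cox7a1 and Cox8b are known from heart and skeletal muscle, Cox6b2, Cox7b2 and Cox8c from testis, Cox4i2 from lung, and Ndufa4l2 from hypoxic cells. Together they averaged 4.20 ± 0.18 in Ts65Dn and 4.17 ± 0.14 in EupTs65Dn, and 5.39 ± 0.12 in Ts66Yah and 5.41 ± 0.15 in EupTs66Yah without array 16 (5.44 ± 0.21 with it). At such a level a signal can be mostly background, and the median SE of their change was 0.13 in Ts65Dn, against 0.063 for the 61 brighter members. Muscle markers, 7 of 7 measured, were called in no comparison, with a mean of 3.67 in Ts65Dn and 3.56 in EupTs65Dn.

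Cox8c was the 1 member that was lower at an unadjusted p under 0.05 in Ts66Yah. Its values (TC1200001022.mm.2) were 4.52, 5.14 and 5.54 in Ts66Yah, against 4.37, 5.28 and 5.90 in EupTs66Yah without array 16, which lay at 6.45. The ranges overlapped, and 6 of 24 Ts66Yah embryos lay above the euploid median. The change was -0.25 (SE 0.089), 0.840-fold with an interval of 0.742 to 0.950 and an adjusted p of 0.216 from limma. With all arrays it was -0.30 (SE 0.10, adjusted p 0.329). In Ts65Dn it was -0.12 (SE 0.13). Cox6b2 differed by 0.32 (SE 0.13, adjusted p 0.742) in Ts65Dn and 0.085 (SE 0.11) in Ts66Yah, and Ndufa4l2 by 0.017 (SE 0.12) and 0.23 (SE 0.11, adjusted p 0.407). Changes of the others were -0.037 and -0.14 for Cox4i2, -0.0051 and 0.055 for Cox6a2, 0.020 and -0.062 for Cox7a1, 0.019 and -0.090 for Cox7b2, and 0.042 and 0.048 for Cox8b, in Ts65Dn and in Ts66Yah in that order.

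**Figure D3:**
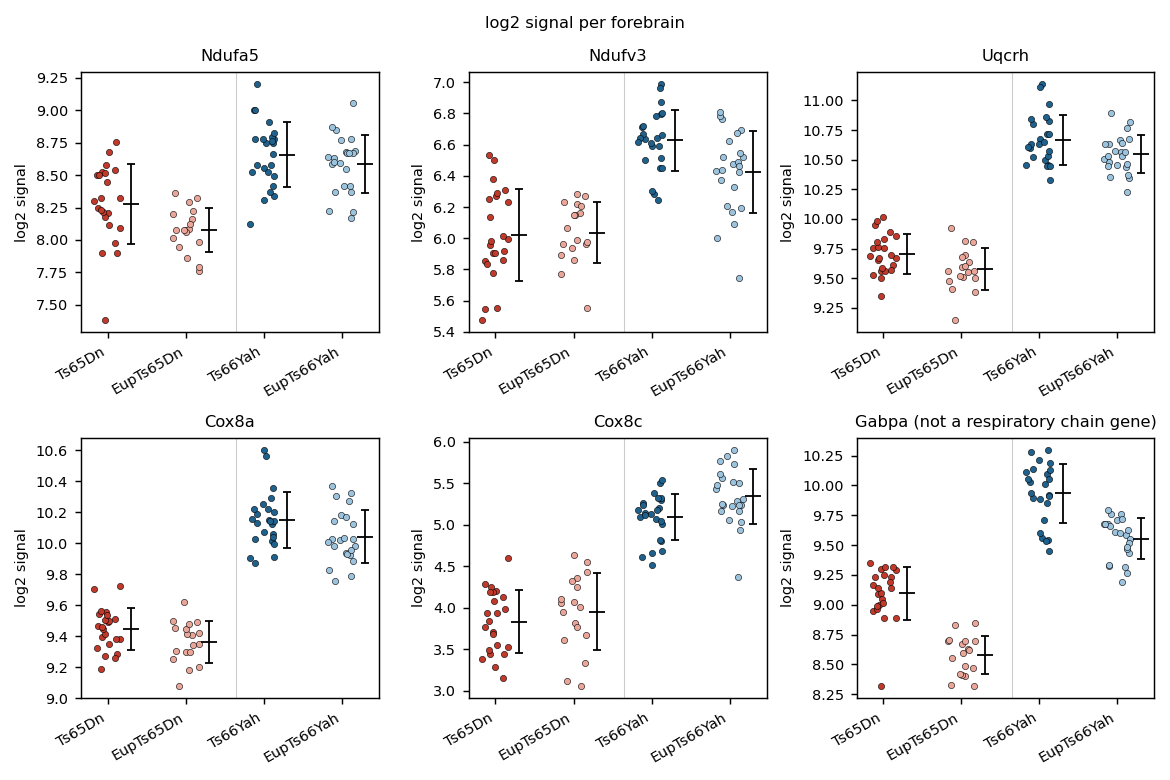
log2 signal of 5 members and of Gabpa in each forebrain (points), with the group mean and SD (bars), for Ts65Dn, EupTs65Dn, Ts66Yah and EupTs66Yah without array 16. The groups of a colony overlap for Ndufa5, Ndufv3, Uqcrh, Cox8a and Cox8c, while for Gabpa 22 of 23 Ts65Dn embryos lie above the euploid median.

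The effects of the trisomies on the members were compared directly by a contrast of both effects in a fit of all 4 groups. This called 0 members, with 0.00901% of all probe sets called with all arrays and 0.149% without array 16, and the smallest adjusted p of a member from limma was 0.696 and 0.682. At an unadjusted p under 0.05, 1 of 69 members passed in either fit (1.45%), against 7.05% and 7.14% of all probe sets. That member was Ndufv3, with a difference of effects of -0.28 (SE 0.13) with all arrays and -0.22 without array 16. The 95% intervals of the 69 differences lay between 0.689-fold and 1.48-fold without array 16.

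The colonies share no control embryos, so the 2 sets of changes come from separate animals. Without array 16, 34 of the 69 genes had a higher mean in both trisomies, close to the 32.7 that the separate shares of 46 and 49 of 69 give when multiplied, 8 a lower mean in both and 27 opposite directions. Across the 69 genes the changes in the 2 colonies had a Pearson r of 0.29, against 0.094 over all probe sets. This is a description across genes, which are not independent replicates.

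**Figure D4:**
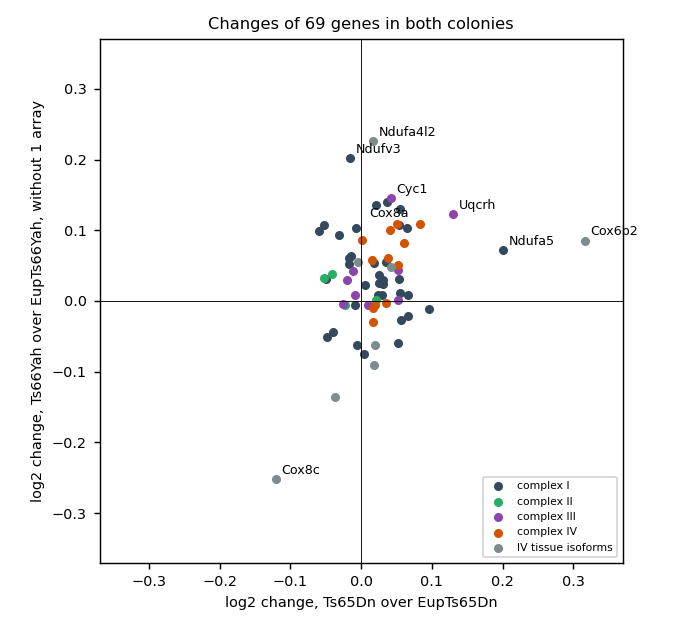
log2 change of each of the 69 genes in Ts65Dn over EupTs65Dn (horizontal axis) and in Ts66Yah over EupTs66Yah without array 16 (vertical axis), coloured by complex. Of the 69 points 34 have a higher mean in both trisomies, and Uqcrh is the 1 gene with an unadjusted p under 0.05 in both. Of all 22206 probe sets 193 passed in both in the same direction.

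The factors that act on respiratory genes were examined as a separate list, of which 22 of 23 genes were measured. Gabpa was called in both trisomies. It lay at 8.32, 9.14 and 9.35 in Ts65Dn at the lowest, median and highest, against 8.32, 8.61 and 8.84 in EupTs65Dn, and at 9.45, 9.97 and 10.3 in Ts66Yah, against 9.19, 9.60 and 9.79 in EupTs66Yah without array 16. In the Ts65Dn colony the ranges overlapped through array 18 alone, which had 8.32 and is among the 4 arrays at the opposite Mmu16 level, and the next lowest Ts65Dn value, 8.89, lay above every EupTs65Dn value. In the Ts66Yah colony the ranges overlapped, with 19 of 24 Ts66Yah embryos above the euploid median. The lowest Ts66Yah value there (array 24) and the highest EupTs66Yah value (array 24) came from arrays at the opposite Mmu16 level. Ts66Yah arrays 23 (9.53) and 2 (9.56), which are not among those arrays, also lay within the EupTs66Yah range. The change was 0.52 (SE 0.064), 1.43-fold with an interval of 1.31 to 1.57, in Ts65Dn, and 0.38 (SE 0.064), 1.30-fold with an interval of 1.19 to 1.42, in Ts66Yah without array 16. Adjusted p-values from limma were 3.56e-07 and 0.00023. With all Ts66Yah arrays the change was 0.58 (SE 0.20) with an adjusted p of 0.339, not called.

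Tfb1m, the mitochondrial 12S rRNA methyltransferase, lies in proximal Mmu17 and was called in Ts65Dn and not in Ts66Yah. Its change was 0.60 (SE 0.082), 1.51-fold with an interval of 1.35 to 1.70, in Ts65Dn, and 0.16 (SE 0.073, adjusted p 0.377 from limma) in Ts66Yah without array 16. The difference of the effects was 0.44 (SE 0.11, adjusted p 0.088) without array 16, while its adjusted p was 0.650 with all arrays. The other measured regulators were not called. The corepressor gene Nrip1, on Mmu16 outside the triplicated segment, differed by 0.018 in Ts65Dn and 0.041 in Ts66Yah. Ppargc1a, which encodes PGC-1alpha, differed by -0.015 (SE 0.074) and 0.15 (SE 0.050, adjusted p 0.173). Nrf1 differed by -0.12 (SE 0.063) and 0.12 (SE 0.049), and Tfam, which packages mitochondrial DNA, by 0.022 and -0.0027.

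The 4 members with a GABP motif had a median change of 0.057 in Ts65Dn and 0.070 in Ts66Yah without array 16, against 0.021 and 0.036 for the other members with a window. They ranged from -0.020 to 0.13 in Ts65Dn and from 0.024 to 0.12 in Ts66Yah. The 7 members with an NRF1 motif had medians of -0.011 and 0.043, against 0.027 and 0.033 for the other members with a window. The 5 with a YY1 motif had medians of -0.0057 and 0.030, against 0.024 and 0.040. These are descriptions of few genes.

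Other mitochondrial genes were not called either. Of 49 complex assembly factors 46 were measured and 0 were called in either trisomy, with 0 higher and 2 lower at an unadjusted p under 0.05 in Ts65Dn, and 3 higher and 1 lower in Ts66Yah without array 16. Of 30 other genes of mitochondrial content 28 were measured and 0 were called, with medians of 0.012 in Ts65Dn and 0.016 in Ts66Yah. The 13 subunits encoded by mitochondrial DNA had no probe set with a gene name here.

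Markers of other cells were set beside these values. Choroid plexus markers averaged 6.63 ± 0.12 in Ts65Dn and 6.46 ± 0.14 in EupTs65Dn, and 7.63 ± 0.21 in Ts66Yah and 7.42 ± 0.25 in EupTs66Yah without array 16. Of the 8 markers 2 were called in each trisomy, Kcne2 and Clic6, both genes of the triplicated Mmu16 segment. With all Ts66Yah arrays 1 of 8 was called there. In Ts66Yah without array 16, Vim (0.19, adjusted p 0.085 from limma) of the astrocyte and radial glia markers and Mbp (0.62, adjusted p 0.050) of the oligodendrocyte markers were also called. Neuron markers averaged 10.5 ± 0.11 in Ts65Dn and 10.6 ± 0.08 in EupTs65Dn, and 11.4 ± 0.11 in Ts66Yah and 11.3 ± 0.15 in EupTs66Yah. Erythroid markers, 5 of 11 measured, averaged 3.39 in both Ts65Dn and EupTs65Dn. None of the neuron, erythroid, midbrain and hindbrain or muscle markers was called, and the part of any of these cells in the members' values was not tested.

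The members varied together from embryo to embryo, apart from genotype. Around the genotype means, the mean pairwise correlation of the 61 members at or above the median signal was 0.25 over 41 embryos of the Ts65Dn colony and 0.30 over 47 embryos of the Ts66Yah colony without array 16. The same mean over all probe sets at or above the median signal was 0.015 and 0.042. It was 0.28 and 0.30 within complex I, 0.21 and 0.35 within complex III, 0.39 and 0.36 within complex IV without tissue isoforms, and 0.018 and 0.022 among the tissue isoforms. These points share arrays and litters, and the correlations are descriptions.

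Part of this variation lay between litters. limma's moderated F test for litter, given genotype, called 1 of 69 members in the Ts65Dn colony (0.378% of all probe sets called). It called 0 in the Ts66Yah colony with all arrays (0% of all probe sets) and 1 without array 16 (0.0901%). At an unadjusted p under 0.05, 20 members passed in the Ts65Dn colony (29.0%, against 10.7% of all probe sets), 7 in the Ts66Yah colony with all arrays (10.1% against 3.87%), and 30 without array 16 (43.5% against 11.5%). The members vary together, so these counts are not independent of one another. Most members are bright, and the shares at an unadjusted p under 0.05 were not taken over brighter probe sets alone. Over probe sets at or above the median signal, the test called 4 of 61 members and 348 probe sets in the Ts65Dn colony. In the Ts66Yah colony with all arrays it called 0 and 0 there. A litter may also be a batch of dissection or RNA extraction, and the labels do not tell these apart.

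Complex III genes led both tests. In the Ts65Dn colony Uqcr11 was called (adjusted p 0.051), followed by Cyc1 (0.108), Uqcr10 (0.158), Ndufa5 (0.162) and Cox7b (0.308). Uqcr11 lay between 5.99 and 6.19 in the 7 embryos of litter TS113 and between 6.12 and 6.75 in the other litters. Trisomic and euploid embryos of TS113 were low alike. Cyc1 averaged 7.45 ± 0.14 in litter TS137, against 6.82 ± 0.19 in TS113.

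In the Ts66Yah colony without array 16, Uqcr10 was called (adjusted p 0.024), followed by Uqcrh (0.108), Ndufa5 (0.112), Cox4i1 (0.145) and Ndufa2 (0.173). Uqcr10 averaged 9.35 ± 0.22 in litter WT11, 9.15 ± 0.26 in WT12 and 9.21 ± 0.09 in WT19, against 8.82 ± 0.18 in WT13, 8.90 ± 0.15 in WT15 and 8.91 ± 0.07 in WT18. Litter WT11 was also highest for Uqcrh (10.8 to 11.1 in its 4 embryos) and for the mean of all 69 genes (9.06, against 8.84 in WT18). The WT11 mean of all 69 genes included Ts66Yah array 2 at 9.26, and its other embryos had 8.94, 9.01 and 9.03. Over the same litters the mean of the other mitochondrial content genes ran from 9.84 in WT18 to 9.93 in WT11. These were also the lowest and highest litters for the 69 genes. The mean spread of the arrays ran from 2.33 to 2.36.

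**Figure D5:**
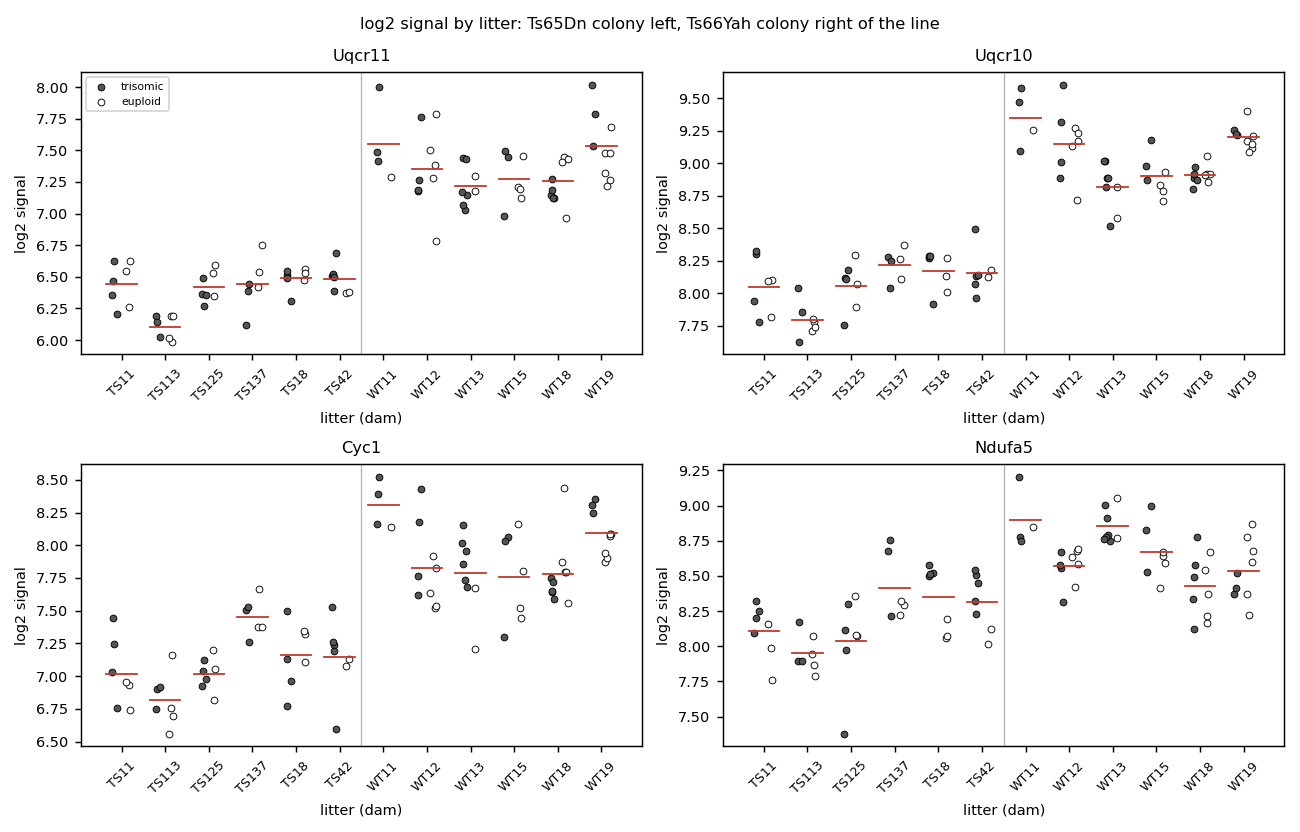
log2 signal of Uqcr11, Uqcr10, Cyc1 and Ndufa5 in each forebrain by litter, trisomic embryos as filled points and euploid embryos as open points, with the litter mean as a line, without EupTs66Yah array 16. Litter TS113 has the lowest mean of the Ts65Dn colony for all 4 genes.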

How the data were processed

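The deposited values were log2 signals of Clariom S arrays, 1 array an embryo, which the authors had summarised by RMA, per the submitters' processing notes; its version and settings were not stated there. They were used without further scaling. Probe sets were named through the platform annotation. Groups, litters and sexes came from the labels. limma 3.58.1 in R 4.3.3 fitted each trisomic group against its own euploid group (lmFit and eBayes, 2-sided), the difference of both effects in a fit of all 4 groups, and a moderated F test of litter given genotype. p-values were adjusted by Benjamini-Hochberg over all 22206 probe sets with a call at 10%, as in the series text, and 95% intervals are unadjusted. The fits were tested on simulated data.

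The members and gene lists were chosen with earlier results of these data known, and no list was tested as a set. Genes were named by rule: every member called, up to 30, topped up to 10 by smallest p in each genotype comparison, up to 5 in each litter test, the members with special roles, and called genes of the other lists. Alternatives were litter as a replicate block, sex, other normalizations, signal filters, array weights, another prior, left-out arrays and left-out litters. p-values measure the spread between embryos, which share litters. Promoter windows came from RefSeq (GRCm38.p6).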

Additional observations from a re-analysis of the deposited data

Results flagged for a closer look

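No outlier test of single values was run in groups of 18 to 24 arrays. One result differed between the colonies by a test of the difference itself: Tfb1m, a regulator outside the 69 genes, for which the Ts65Dn effect exceeded the Ts66Yah effect by 0.44 on the log2 scale without EupTs66Yah array 16 (0.4383, SE 0.109, adjusted p 0.088 from limma). With all arrays the difference was 0.39 (SE 0.12, adjusted p 0.650) and was not called. Tfb1m lies in the proximal Mmu17 part that Ts65Dn carries in an extra copy and Ts66Yah does not. Of the 69 members none met this test.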

How the results depend on the processing

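With litter as a replicate block, 0 members were called in Ts65Dn (median log2 change 0.014), in Ts66Yah (0.156) and in the difference of effects, so it changed no call. The Ts66Yah alternatives kept array 16 except where it or its litter was left out. Without array 16 and without the block the Ts66Yah median was 0.032. The median SE of the members was then 0.062, against 0.13 with that array. The block was not run in Ts66Yah without array 16. The median change of the members lay between 0.012 (array weights) and 0.20 (without litter WT19) in Ts66Yah, and it was 0.069 without litter WT18, which holds array 16. In Ts65Dn it lay between -0.0073 and 0.033 over the left-out litters. The count of members called in Ts65Dn ran from 0 to 1 over the left-out litters, the 1 being Ndufa5 without TS125. The looser criterion of the series text (unadjusted p under 0.01 and a ratio beyond 0.8 or 1.2) passed 1 of 69 members in Ts66Yah, Ndufv3, and 472 of 22206 probe sets. That fit held array 16, and the fold change of Ndufv3 without it, given above, lies below the ratio of 1.2. Every other alternative gave 0 members in the genotype comparisons, among them sex as a covariate, quantile normalization and the trended and robust prior.

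Members that differed among litters in the Ts65Dn colony numbered 0 at an adjusted p under 0.05 (57 of all probe sets), 4 over probe sets at or above the median signal (348), 2 with arrays centred on their median (94) and 3 with array weights (139), against 1 (84). In the Ts66Yah colony they numbered 10 with array weights (534 of all probe sets) and 1 without array 16 (20), against 0 with all arrays (0). Over all probe sets, Ts66Yah calls numbered 38 with all arrays, 158 with array weights, 207 without array 16 and 326 when the 4 arrays at the other level were also left out, 15 without litter WT12 and 88 without WT18, and 210 in a fit of all 4 groups, which called 68 in Ts65Dn against 109. The causes were not tested. Low signal limited the tissue isoforms.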

Other observations

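The mean of both trisomy effects, chosen after seeing the data, was fitted over all 4 groups without EupTs66Yah array 16. It called 0 of the 69 members, with 1.03% of all probe sets called, and at an unadjusted p under 0.05 it passed 10 members (14.5%, against 10% of all probe sets). Among the 61 members at or above the median signal 8 passed. Of the 11103 probe sets at or above it 926 passed as higher and 421 as lower, a share closer to that of the members. Uqcrh was nearest, with a mean log2 effect of 0.13 and an adjusted p of 0.136 from limma, and 19 of 23 Ts65Dn and 16 of 24 Ts66Yah embryos lay above their euploid median. It was called (1 member) over probe sets at or above the median signal (adjusted p 0.074, 277 probe sets called in all), without the 4 arrays at the other level (0.094, 316 called) and with the trended and robust prior (0.090, 254 called). The smallest adjusted p of any member from limma was 0.109 with litter as a block. It was 0.249 with arrays centred on their median, the highest of the settings run.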
